A study of Mus musculus with 36 samples.

Results

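Regulatory macrophages (Mreg) are compared here with macrophages grown in M-CSF and given IFN-γ (MΦ_IFN-γ), 3 arrays of each kind, taken by their titles from the 36 arrays and 12 groups of the series. Both kinds started from mouse bone marrow monocytes that were sorted as CD11b+, Ly6C+ and Ly6G-, and both spent 7 days in untreated dishes with 10% FCS, the last 24 h with 25 ng/ml IFN-γ. The Mreg medium also held 10% human AB serum and had 5 ng/ml M-CSF, whereas the MΦ_IFN-γ medium had 20 ng/ml M-CSF and no human serum. Serum and M-CSF dose therefore changed together, and no group of the series separates them. Strain, sex and age of the mice are not in the labels. The labels leave unsaid whether the arrays of 1 group stand for separate mice or cultures, and every p-value here is therefore set against array-to-array spread, which may be technical.

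M-CSF keeps monocytes alive and drives them to become macrophages, and IFN-γ acts on them through its receptor and JAK kinases to raise guanylate-binding proteins, MHC class II molecules and the chemokines CXCL9, CXCL10 and CXCL11. Activated mouse macrophages use arginine through nitric oxide synthase (Nos2) or through arginase (Arg1), and the choice is a classical way of telling inflammatory from tissue-repair states. Regulatory macrophages are known as a cell preparation that restrains T cells and has been tried as a way of prolonging graft survival.

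Levels are given as log2 of the processed signal of a gene's probe minus the 75th percentile of that array, so a level of 0 lies at that percentile and 1 unit is a doubling. Levels of different genes cannot be set against each other, because each probe binds its own transcript with its own strength. Differences are Mreg minus MΦ_IFN-γ, with the standard error of the fit, and the adjusted p is that of limma after Benjamini-Hochberg correction over 17591 genes. A gene is called when it is under 0.05. Well above background means flagged so by the scanner software. Where no array of the dimmer group was, the fold is a lower bound, written as at least. The bound holds for this processing only, and other processings gave smaller differences, as given at the end. In RNA from whole cultures, a change in the number of cells of a kind and a change in RNA per cell cannot be told apart.

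The 6 arrays were alike in quality. Between 53.3 and 56.2% of spots were well above background on the Mreg arrays, against 54.2 to 56.1% on the MΦ_IFN-γ arrays, and 0 spots were saturated. Across 17591 genes, replicate arrays correlated at 0.985 to 0.991 within Mreg, at 0.992 to 0.993 within MΦ_IFN-γ, and at 0.961 to 0.978 between them. The median SD of a gene was 0.20 in Mreg and 0.15 in MΦ_IFN-γ. The Mreg arrays lay on slides that held Mreg cultures only, so slide and culture cannot be told apart; each group had 1 array scanned on the first day and 2 on the second. With slide as a random block the number of called genes was 4962, against 4930 without it. That fit cannot separate slide from culture either, because no slide held both groups.

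Both groups carried the macrophage program. All 12 macrophage markers (among them Csf1r, Adgre1, Cd68 and Mertk) were well above background on every Mreg array, and 11 of 12 on every MΦ_IFN-γ array. Their summed linear level (2 to the power of the level) ran from 1286 to 1492 in Mreg and from 1605 to 1710 in MΦ_IFN-γ. Of 10 T and NK cell markers, 0 were called, and Cd3d, Cd3g, Cd8a, Zap70, Klrb1c and Prf1 were not well above background on any of the 6 arrays.

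Of 17591 genes, 4930 were called (28%), 2463 higher in Mreg (14%) and 2467 lower (14%). At least a 2-fold change was seen for 1769 called genes (10.1%), 1018 higher (5.79%) and 751 lower (4.27%). In 8000 genes (45.5%) the 3 Mreg arrays and the 3 MΦ_IFN-γ arrays did not overlap, and the median difference over all genes was 0.00. Counts in the gene lists below are to be read beside these shares. Among genes well above background on all 6 arrays, the largest rises were in a cell surface proteoglycan (Sdc1), arginase (Arg1), caveolin (Cav1), the inhibitory ligand Cd200 and the chemokine Cx3cl1. Among the same genes the largest falls were in Plac8, the interferon-induced chemokines Cxcl10 and Cxcl9, the myeloid receptor Pilrb1 and complement factor B (Cfb).

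The Ear genes encode secreted ribonucleases of the eosinophil type, and 4 of them were not well above background on any MΦ_IFN-γ array. Because the family is made of near copies, the probes that carry this result are shown here; capitals in Ear3 and Ear10 mark a run of 31 bases that both probes hold.
Ear1: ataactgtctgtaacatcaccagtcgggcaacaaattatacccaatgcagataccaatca
Ear3: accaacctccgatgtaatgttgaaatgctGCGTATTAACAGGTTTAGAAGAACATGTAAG
Ear6: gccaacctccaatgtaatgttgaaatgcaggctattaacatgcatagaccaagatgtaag
Ear10: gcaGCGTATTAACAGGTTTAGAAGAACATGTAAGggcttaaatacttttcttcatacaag
The deposited annotation places them on build mm8, Ear1 at chr14:42698911-42698970 (minus strand), Ear3 at chr14:42803050-42803108 (minus strand), Ear6 at chr14:50776075-50776134 (plus strand) and Ear10 at chrUn_random:625460-625519 (minus strand). Laid end to end, the Ear3 and Ear6 probes have the same base at 49 of 60 positions, so transcripts of Ear3, Ear6 and Ear10 may each bind to more than 1 of these probes. The Ear1 probe shares no run longer than 7 bases with the other probes. Only probes were compared with each other, so whether transcripts of other Ear genes bind the Ear1 probe was not tested.

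Ear1 read -0.46, -0.10 and -0.32 in Mreg, against -7.81, -6.84 and -7.86 in MΦ_IFN-γ (adjusted p = 1.8e-09), and was at least 42.4-fold higher in Mreg. Ear10 read -1.26, -0.73 and -0.96 in Mreg and -8.08, -7.77 and -7.81 in MΦ_IFN-γ, at least 26.3-fold higher in Mreg (adjusted p = 2.19e-11). All 3 Mreg arrays stood far above all 3 MΦ_IFN-γ arrays for both. Ear6 was at least 17.2-fold and Ear3 at least 17.2-fold higher in Mreg, with levels from -1.85 to -1.37 in Mreg and signals not well above background in MΦ_IFN-γ. In the list of 10 eosinophil-type ribonucleases, 5 rose and 1 (Rnaset2a, outside the rule for named genes) fell, with a median difference of 1.65. Of 10 mast cell, basophil and eosinophil markers, 0 rose and 3 fell (0 under normexp, another background correction, and 1 without any single array other than MΦ_IFN-γ 3), and their summed linear level was 0.158 to 0.258 in Mreg against 0.364 to 0.615 in MΦ_IFN-γ. The eosinophil granule genes Epx and Prg2 were not well above background on any Mreg array.

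Sdc1, a heparan sulfate proteoglycan that binds growth factors and chemokines at the cell surface, showed the largest rise among genes well above background on all 6 arrays. Its level was 3.94, 6.41 and 4.56 in Mreg, against -2.93, -2.90 and -2.82 in MΦ_IFN-γ, a difference of 7.85 ± 0.53 or 231-fold (adjusted p = 4.87e-11). Every Mreg array lay far above every MΦ_IFN-γ array, and Mreg 2 was the highest of its group. Gpc1, a lipid-anchored proteoglycan of the glypican family, read 4.70, 6.17 and 4.89 in Mreg and 1.96, 1.53 and 0.68 in MΦ_IFN-γ (3.86 ± 0.50, adjusted p = 1.45e-06). Hs6st1, which adds 6-O-sulfate to heparan sulfate, rose 2.52-fold. In the list of 17 proteoglycan and heparan sulfate genes, 4 rose and 1 fell, with a median of 0.04. Sdc1 is also a plasma cell marker, and the summed level of 8 B and plasma cell markers was 17.4 to 85.9 in Mreg against 3.63 to 4.84 in MΦ_IFN-γ. Sdc1 is itself among the 8 and makes up most of that sum in Mreg, so the sum does not describe the other markers. In that list Sdc1 alone rose and Ighm, the immunoglobulin M heavy chain, fell by 3.86, while Ms4a1, Jchain and Mzb1 were not well above background on any Mreg array.

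Caveolae are small pits of the plasma membrane shaped by caveolins and cavins, and some genes for this coat rose in Mreg. Cav1, the main caveolin, read 4.00, 3.22 and 3.42 in Mreg and -4.20, -3.69 and -2.75 in MΦ_IFN-γ, a difference of 7.10 ± 0.49 or 137-fold (adjusted p = 6.97e-11). Cavin3 read 0.98, 0.13 and -0.53 in Mreg, against -4.41, -5.09 and -5.92 in MΦ_IFN-γ (5.33 ± 0.55, adjusted p = 4.31e-08), with 2 of 3 MΦ_IFN-γ arrays well above background. Cavin1, the cavin that caveolae need in order to form, was 8.66-fold higher and Pacsin3, a membrane-bending adaptor, 4.05-fold higher in Mreg. In none of these genes did the groups overlap. Of 11 coat genes, 5 rose and 1 fell, with a median of 1.39. Cav1 is also abundant in endothelium and fibroblasts. The summed level of 11 stromal and endothelial markers, which include Cav1 itself, was 33.0 to 44.3 in Mreg against 23.6 to 25.9 in MΦ_IFN-γ. Besides Cav1, Dcn rose and Kdr fell, and Col1a1, Pdgfrb and Kdr were not well above background on any Mreg array.

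**Figure D1:**
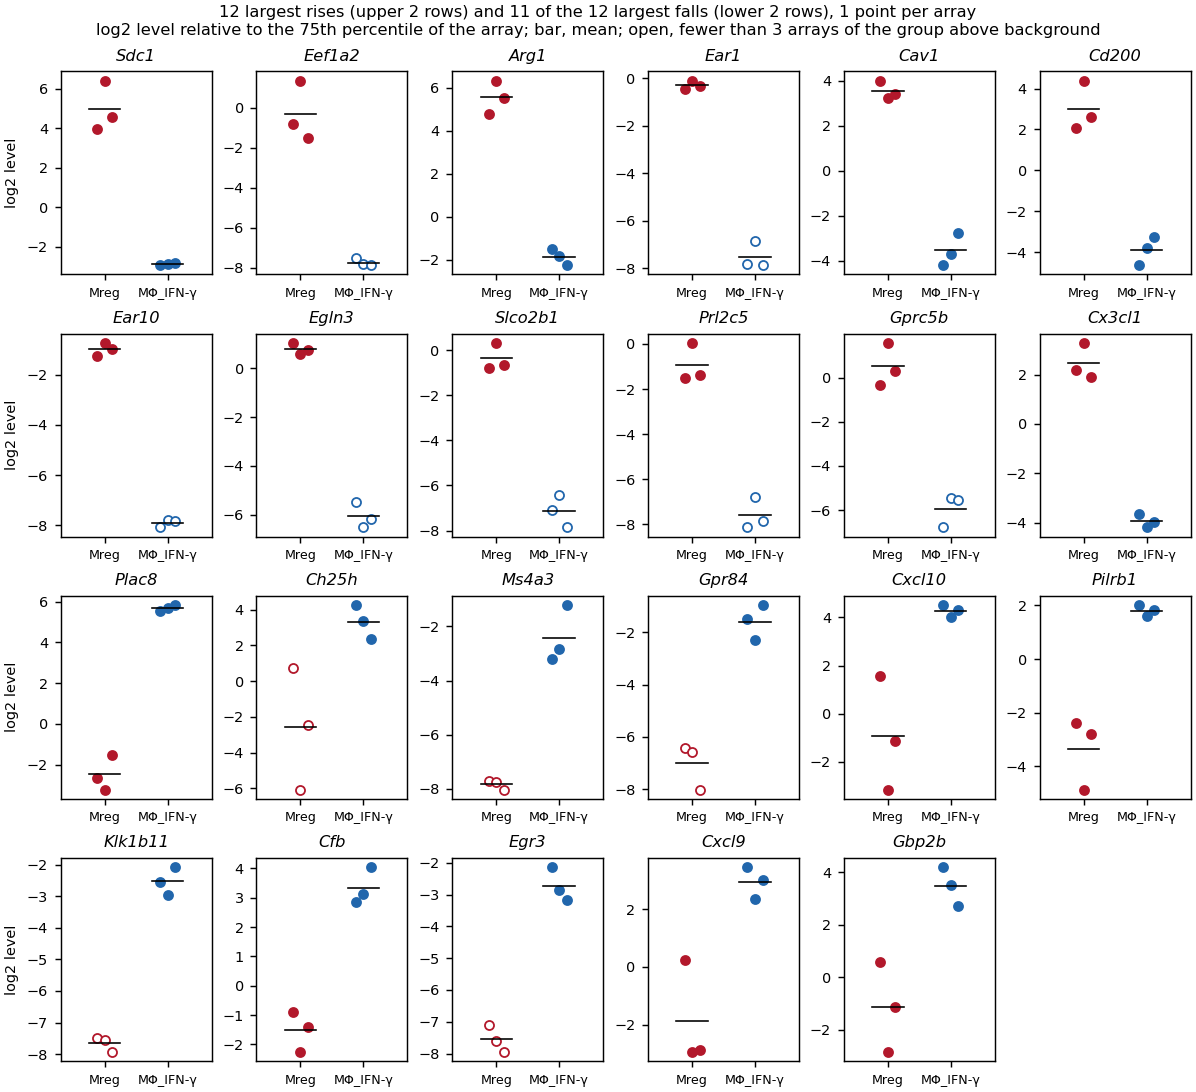
Levels of the 12 genes with the largest rises and of 11 of the 12 with the largest falls on each of the 6 arrays (log2 relative to the array's 75th percentile), with Mreg arrays left of MΦ_IFN-γ arrays in each gene; bars mark group means, and points are open where fewer than 3 arrays of the group were well above background. Sdc1 lies between 3.94 and 6.41 in Mreg and between -2.93 and -2.82 in MΦ_IFN-γ, and Ch25h shows the widest scatter among Mreg arrays, from -6.06 to 0.72.

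Among genes of arginine use, Arg1, which splits arginine into ornithine and urea, stood out. It read 4.77, 6.32 and 5.54 in Mreg, against -1.53, -1.81 and -2.25 in MΦ_IFN-γ, a difference of 7.41 ± 0.40 or 170-fold (adjusted p = 1.35e-12). Nos2 was well above background on 1 of 3 Mreg arrays and on none of the MΦ_IFN-γ arrays; its levels of -4.88, -5.53 and -5.87 in Mreg and -5.95, -6.53 and -5.61 in MΦ_IFN-γ overlapped, and it was not called (0.60 ± 0.47, adjusted p = 0.378). Slc7a2, an arginine transporter, was 3.44-fold higher in Mreg at -0.94, -0.32 and -1.93, against -2.27, -2.85 and -3.43 in MΦ_IFN-γ. The polyamine genes Azin1, Sat1 and Sms, which are outside the rule for named genes, also rose, by 0.98, 0.90 and 0.57. Of 14 genes in the list, 5 rose and 1 fell (Slc7a1, another arginine transporter), with a median of 0.12.

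Arg1 is often counted among IL-4-associated genes, but most of that list showed no call. Of 22 genes tested, 5 rose and 1 fell, with a median of 0.22. Clec10a, a galactose-type lectin, read 5.05, 4.65 and 5.73 in Mreg and 2.64, 2.64 and 2.30 in MΦ_IFN-γ (2.62 ± 0.37, adjusted p = 5.84e-06). Ccl22, a chemokine that attracts CCR4-bearing T cells, read -1.74, -1.54 and -2.32 in Mreg; it was not well above background on any MΦ_IFN-γ array and was at least 14.2-fold higher in Mreg. Mrc1, the mannose receptor, overlapped between the groups (-0.41 ± 0.55, adjusted p = 0.643), and Retnla was not well above background in either group. Leaving out Mreg 2, MΦ_IFN-γ 2 or MΦ_IFN-γ 3 lowered the number of rises in this list to 3.

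Interferon-induced genes were lower in Mreg at the same IFN-γ dose, and many of them also differed between the 2 media without IFN-γ, as given below. The falls were largest in chemokines. Cxcl9, an attractant of CXCR3-bearing T cells, read 0.22, -2.94 and -2.89 in Mreg and 3.46, 2.36 and 3.00 in MΦ_IFN-γ, a difference of -4.81 ± 0.70 (adjusted p = 7.2e-06). Cxcl10, which acts on the same receptor, read 1.56, -3.14 and -1.13 in Mreg and 4.51, 4.01 and 4.30 in MΦ_IFN-γ, a difference of -5.18 ± 0.78 (adjusted p = 1.11e-05). Gbp2b, a guanylate-binding protein, read 0.56, -2.85 and -1.13 in Mreg, against 4.18, 3.52 and 2.70 in MΦ_IFN-γ (-4.61 ± 0.68, adjusted p = 9.62e-06). In each of these 3 genes Mreg 1 was the highest Mreg array, and it still lay below every MΦ_IFN-γ array.

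The promoters of many such genes carry the interferon-stimulated response element, whose core was searched here as GAAANNGAAA or, on the other strand, TTTCNNTTTC. The windows below give the 250 bases before the start of a gene that fell by a large amount in each of 3 families, on the gene's own strand, from RefSeq on build GRCm38.p6; capitals mark the core.
Gbp2b: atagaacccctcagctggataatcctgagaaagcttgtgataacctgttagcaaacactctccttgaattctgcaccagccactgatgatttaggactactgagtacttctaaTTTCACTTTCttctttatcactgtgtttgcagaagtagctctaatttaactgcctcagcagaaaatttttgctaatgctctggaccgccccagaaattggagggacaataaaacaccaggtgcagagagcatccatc
Cxcl10: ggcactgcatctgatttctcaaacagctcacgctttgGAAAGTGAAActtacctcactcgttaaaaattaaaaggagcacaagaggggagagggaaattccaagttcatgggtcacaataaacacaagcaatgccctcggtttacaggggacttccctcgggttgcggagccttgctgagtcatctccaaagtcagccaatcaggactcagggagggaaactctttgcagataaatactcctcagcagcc
Ifit3: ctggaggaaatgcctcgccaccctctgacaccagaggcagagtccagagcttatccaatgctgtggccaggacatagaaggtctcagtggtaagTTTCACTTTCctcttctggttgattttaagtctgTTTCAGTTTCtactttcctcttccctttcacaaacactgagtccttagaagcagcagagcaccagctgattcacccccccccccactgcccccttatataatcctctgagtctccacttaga
The windows are chr3:142594597-142594846 (plus strand) for Gbp2b, chr5:92348890-92349139 (minus strand) for Cxcl10 and chr19:34583279-34583528 (plus strand) for Ifit3. The core begins 137 bases before the start of Gbp2b, 213 bases before that of Cxcl10, and 156 and 122 bases before that of Ifit3. In windows from 250 bases before to 50 bases after the start, 437 of 11544 tested genes with a promoter entry held the core (3.79%). The share was 12 of 21 (57.1%) among type I interferon-stimulated genes and 9 of 10 (90%) among guanylate-binding proteins and immunity-related GTPases. Among chemokines it was 2 of 16 (12.5%) and among MHC class II genes 1 of 10 (10%). It was 52 of 498 (10.4%) among genes at least 2-fold lower in Mreg and 14 of 701 (2%) among those at least 2-fold higher. A match of letters is a description of these windows and not a measured binding site.

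Type I interferon-stimulated genes, the antiviral set named for its response to IFN-α and IFN-β, fell together. Of 29 genes, 25 fell and 0 rose, with a median of -1.62, and 23 of them fell at least 2-fold. Ifi44 read 0.28, -2.19 and -1.34 in Mreg and 3.52, 3.20 and 3.29 in MΦ_IFN-γ (-4.42 ± 0.72, adjusted p = 3.63e-05). Ifit3, which binds viral RNA together with other IFIT proteins, read 2.51, 2.27 and 2.57 in Mreg and 5.23, 5.47 and 5.63 in MΦ_IFN-γ (-2.99 ± 0.53, adjusted p = 1.03e-04). The transporter chaperone Rtp4 was 7.65-fold lower and the antiviral GTPase Mx1 6.90-fold lower in Mreg. In all 29 genes, called or not, the groups did not overlap. Over all genes, 45.5% did not overlap and 14% were called lower.

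Guanylate-binding proteins and immunity-related GTPases, which attack vacuoles that hold microbes, were lower in part. Of 15 genes, 8 fell and 0 rose, with a median of -0.87. Gbp4 read 4.04, 1.71 and 2.88 in Mreg and 5.29, 5.38 and 5.37 in MΦ_IFN-γ (-2.47 ± 0.47, adjusted p = 2.29e-04), and Gbp6 read 3.08, 1.22 and 1.79 in Mreg and 4.27, 4.17 and 3.85 in MΦ_IFN-γ (-2.06 ± 0.53, adjusted p = 0.00387). Gbp8 was 2.98-fold lower in Mreg, and this call was lost without Mreg 2, when 5 of the 15 genes fell. Mreg 1 read highest of the Mreg arrays in 14 of the 15 genes.

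Of 16 genes of IFN-γ signalling, 3 rose and 6 fell, with a median of -0.42; 1 rose without Mreg 1, without MΦ_IFN-γ 3 or under normexp. Socs3, a feedback inhibitor of cytokine signalling, read 5.52, 4.58 and 4.59 in Mreg and 3.76, 3.65 and 3.45 in MΦ_IFN-γ (1.28 ± 0.39, adjusted p = 0.0137), and the call was lost without Mreg 1 or without MΦ_IFN-γ 3. Batf2, a transcription factor that IFN-γ induces, was 2.21-fold lower in Mreg, a call lost without Mreg 2. Irf1 and Ciita, outside the rule for named genes, belong to the pathway itself. Irf1, an early transcription factor of the IFN-γ response, read 8.22, 8.14 and 8.09 in Mreg and 8.21, 8.22 and 8.25 in MΦ_IFN-γ, and was not called (-0.07 ± 0.13, adjusted p = 0.748). Ciita, the master regulator of MHC class II genes, had a difference of -1.66 ± 0.66 and was not called (adjusted p = 0.0620).

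**Figure D2:**
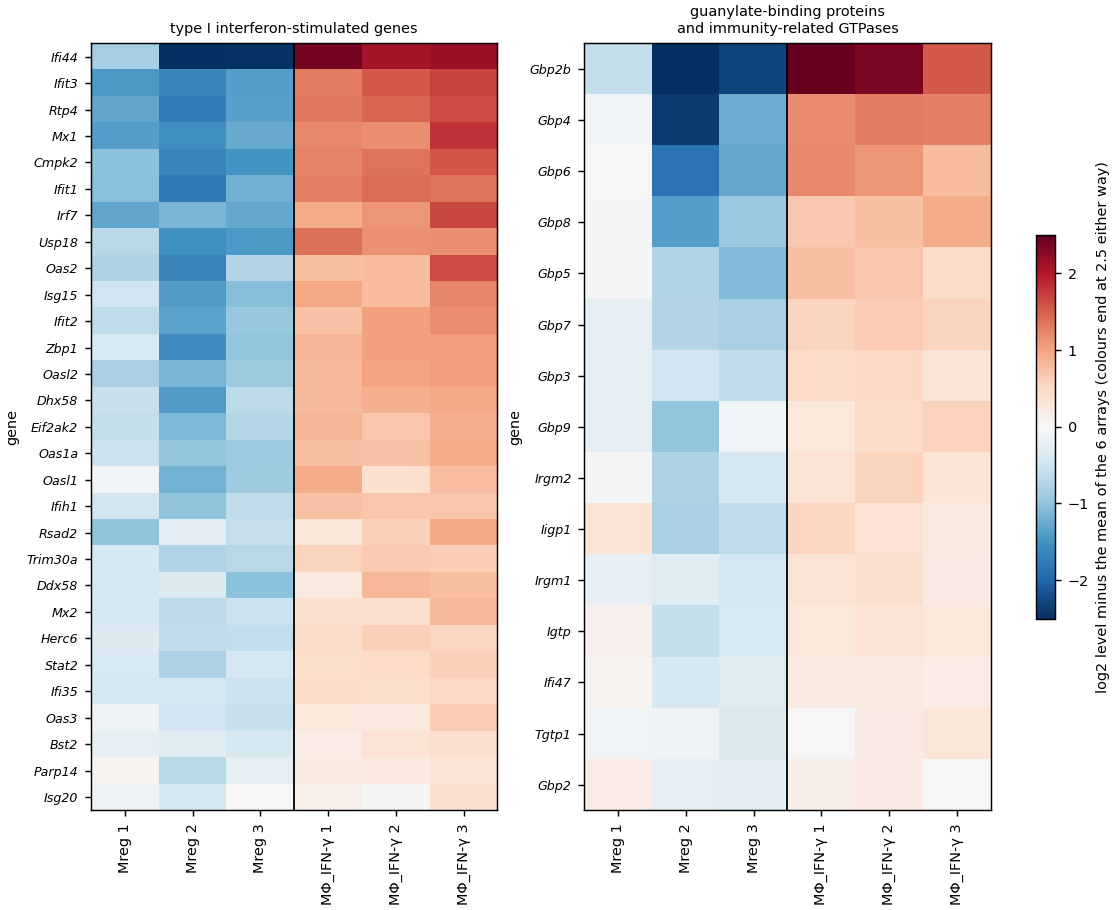
Colour map of 29 type I interferon-stimulated genes and of 15 guanylate-binding proteins and GTPases (1 gene per line) on each array, as the log2 level minus the gene's mean over the 6 arrays, with Mreg columns left of MΦ_IFN-γ columns. Gbp4, with 4.04, 1.71 and 2.88 in Mreg against 5.29, 5.38 and 5.37 in MΦ_IFN-γ, shows the spread among Mreg arrays, while Ifit3 is nearly level within each group.

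MHC class II genes present peptides to CD4 T cells. Of 12 genes, 6 fell and 0 rose, with a median of -0.89. Cd74, the invariant chain, read 5.11, 2.63 and 3.36 in Mreg and 7.15, 6.82 and 6.33 in MΦ_IFN-γ (-3.07 ± 0.59, adjusted p = 2.51e-04). H2-Aa read 2.65, 1.25 and 1.14 in Mreg and 4.49, 3.98 and 3.64 in MΦ_IFN-γ, 5.10-fold lower in Mreg, and H2-Eb1 was 5.05-fold lower. H2-Oa, part of a complex that tunes peptide loading, read -5.20, -5.06 and -6.03 in Mreg and -1.85, -1.85 and -2.03 in MΦ_IFN-γ, 11.4-fold lower in Mreg, with 2 of 3 Mreg arrays well above background. Of 17 MHC class I genes, 10 fell and 0 rose, with a median of -0.41, and 0 changed by 2-fold.

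Of 26 genes of T cell costimulation and inhibition, 5 rose and 5 fell, with a median of -0.01. Cd40, which receives the CD40 ligand signal from T cells, was 3.30-fold lower in Mreg, and Cd86, the ligand of CD28 and CTLA-4, 3.05-fold lower. Cd86 read 1.24, -0.23 and -0.15 in Mreg and 2.49, 1.79 and 1.41 in MΦ_IFN-γ, and it was not called when the 6 arrays were fitted alone. Tnfsf14 (LIGHT), a costimulatory TNF family member, read -1.26, -4.29 and -2.01 in Mreg and 0.43, 0.38 and 0.02 in MΦ_IFN-γ (-2.79 ± 0.53, adjusted p = 2.10e-04). Cd276 (B7-H3) was at least 6.73-fold higher in Mreg. Cd200, whose receptor on myeloid cells restrains them, is not in this list. It read 2.08, 4.39 and 2.59 in Mreg and -4.64, -3.82 and -3.29 in MΦ_IFN-γ, a difference of 6.94 ± 0.50 or 122-fold (adjusted p = 1.33e-10). Cd274 (PD-L1) lay between 6.24 and 6.53 in Mreg and between 5.92 and 6.12 in MΦ_IFN-γ; the groups did not overlap, but it was not called (0.29 ± 0.18, adjusted p = 0.246). Il10 (adjusted p = 0.221) and Ido1 (adjusted p = 0.950) were not called either.

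Inflammatory cytokines and NF-κB targets were mostly lower: 16 of 26 fell, 2 rose, and the median was -0.92. Tnf read 0.83, -0.10 and 0.63 in Mreg and 2.86, 2.59 and 3.36 in MΦ_IFN-γ, 5.60-fold lower in Mreg (adjusted p = 2.99e-06). Il1b read -4.40, -5.45 and -6.00 in Mreg and -1.93, -1.70 and -1.10 in MΦ_IFN-γ (-3.70 ± 0.77, adjusted p = 5.39e-04), with 1 of 3 Mreg arrays well above background, and differed by -1.60 under the alternative that moved it most. For both cytokines every Mreg array lay below every MΦ_IFN-γ array. Ch25h, which makes 25-hydroxycholesterol, read 0.72, -6.06 and -2.43 in Mreg and 4.25, 3.34 and 2.34 in MΦ_IFN-γ (-5.90 ± 1.12, adjusted p = 2.16e-04); 2 of 3 Mreg arrays were well above background, and the call was lost when the 6 arrays were fitted alone. Gpr84, a receptor for medium-chain fatty acids, was at least 15.3-fold lower in Mreg, and Marcksl1, an actin-binding protein, 7.89-fold lower. The 2 rises were Vcam1 and Nfkbia, outside the rule for named genes. Il12b was not well above background in either group.

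Toll-like receptor genes were lower where they were called. Of 15 genes, 6 fell and 0 rose, with a median of -0.46. Tlr2, the receptor for bacterial lipoproteins, read -0.86, -2.29 and -1.26 in Mreg and 1.69, 1.58 and 2.13 in MΦ_IFN-γ (-3.27 ± 0.45, adjusted p = 3.35e-06). Tlr1, its partner, was 2.29-fold lower, Tlr3, the receptor for double-stranded RNA, 3.59-fold lower and Ly86, a partner of the Toll-like protein CD180, 2.49-fold lower in Mreg, the last a call lost when the 6 arrays were fitted alone.

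Chemokines split in direction: 8 of 23 fell and 4 rose, with a median of -0.26. The falls beside Cxcl9 and Cxcl10 were Ccl3, Ccl4, Ccl5, Ccl8, Ccl12 and Cxcl11, outside the rule for named genes. Cx3cl1, a membrane-bound chemokine, went the other way: it read 2.17, 3.28 and 1.91 in Mreg and -3.62, -4.18 and -3.98 in MΦ_IFN-γ, a difference of 6.38 ± 0.50 or 83.1-fold (adjusted p = 5.93e-10). Among 14 chemokine and formyl peptide receptors, 7 fell and 2 rose, with a median of -1; without Mreg 1 or under normexp, 4 fell. Ccr2, through which monocytes leave the marrow, read -1.54, -2.59 and -1.60 in Mreg and 0.73, 1.09 and 1.40 in MΦ_IFN-γ (-2.98 ± 0.43, adjusted p = 6e-06). Fpr1, the receptor for formylated bacterial peptides, was 9.12-fold lower in Mreg. Ccr7, which guides cells to lymph nodes, was well above background on all 3 MΦ_IFN-γ arrays and on no Mreg array, at least 1.75-fold lower; under normexp the difference was -0.36 and the call was lost (adjusted p = 0.906). Cxcr4, the receptor for CXCL12, read -1.10, 0.72 and 0.08 in Mreg and -2.63, -2.15 and -2.14 in MΦ_IFN-γ, 4.62-fold higher in Mreg.

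Some genes that mark monocytes and early myeloid cells were lower in Mreg, and most were not called. Plac8, which is high in monocytes, showed the largest fall among genes well above background on all 6 arrays. It read -2.66, -3.22 and -1.53 in Mreg and 5.53, 5.68 and 5.83 in MΦ_IFN-γ, a difference of -8.15 ± 0.56 or 284-fold (adjusted p = 5.57e-11). Ms4a3, a marker of granulocyte and monocyte precursors, was at least 8.65-fold lower in Mreg, a call lost under normexp background correction. Of 11 monocyte markers, 4 fell and 1 (F13a1) rose, and their summed level was 67.6 to 212 in Mreg against 301 to 307 in MΦ_IFN-γ. Of 14 neutrophil and granulocyte precursor markers, 5 fell and 1 (S100a8) rose, and their summed level was 6.20 to 19.2 in Mreg against 4.54 to 6.79 in MΦ_IFN-γ. S100a8 alone makes up most of that sum in Mreg. Of the 14, 7 were not well above background on any Mreg array, against 2 in MΦ_IFN-γ. The number of falls among these 14 was 3 without Mreg 2, Mreg 3, MΦ_IFN-γ 1 or MΦ_IFN-γ 3, 2 without MΦ_IFN-γ 2 and 1 under normexp. The pair S100a8 and S100a9, outside the rule for named genes, encodes 2 chains of the same protein, calprotectin, and moved in opposite directions. S100a8 read 2.47, 4.21 and 2.95 in Mreg and 0.12, -0.32 and -0.35 in MΦ_IFN-γ (3.40 ± 0.48, adjusted p = 4.42e-06). S100a9 read -1.79, -1.80 and -1.30 in Mreg and 2.26, 1.43 and 0.48 in MΦ_IFN-γ (-3.02 ± 1.13, adjusted p = 0.0475). The part of other cell types in these differences was not tested.

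Several complement genes were lower in Mreg. Of 16 Fc receptor and complement genes, 8 fell and 2 rose, with a median of -0.69; without Mreg 2, 5 fell. Cfb, complement factor B of the alternative pathway, read -0.89, -2.25 and -1.39 in Mreg and 2.87, 3.12 and 4.04 in MΦ_IFN-γ (-4.85 ± 0.62, adjusted p = 1.21e-06). C3, the central complement protein, was 7.05-fold lower, properdin (Cfp), which stabilises the alternative pathway convertase, 4.68-fold lower and C4b 5.98-fold lower in Mreg, the last a call lost without Mreg 2 and when the 6 arrays were fitted alone. C1qa, a chain of C1q, read 3.13, 0.98 and 3.23 in Mreg and 4.87, 5.02 and 4.94 in MΦ_IFN-γ; Mreg 2 stood apart from the other Mreg arrays, and without it the gene was not called. The 2 rises were the integrins Itgam and Itgax, which form complement receptors and are outside the rule for named genes.

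**Figure D3:**
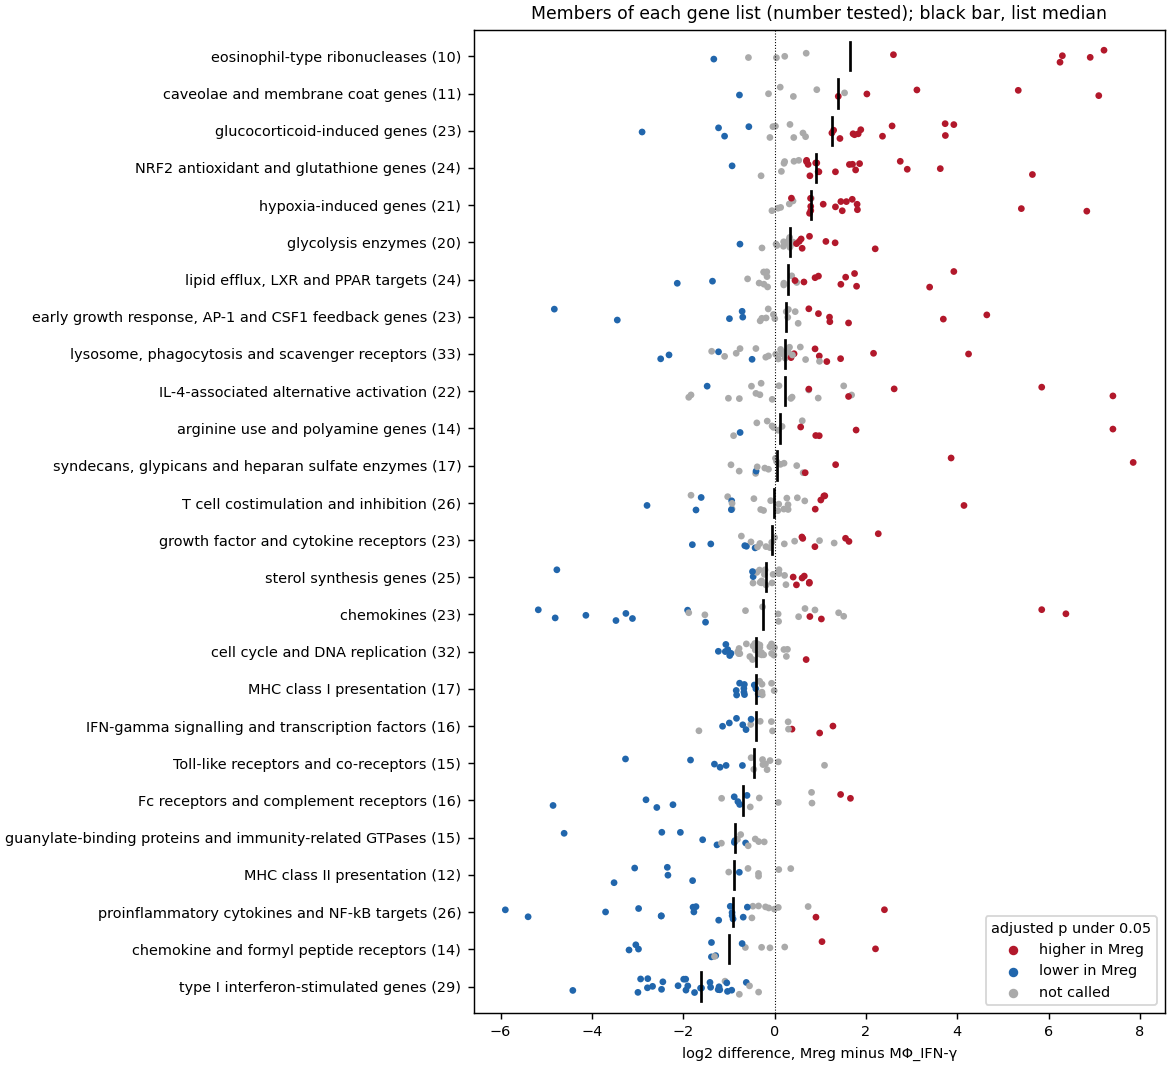
Differences (Mreg minus MΦ_IFN-γ, log2) of the members of each gene list, 1 point per gene, red where called higher in Mreg, blue where called lower and grey where not called, with the list's median as a bar. Type I interferon-stimulated genes lie at a median of -1.62 with 25 of 29 called lower, and hypoxia-induced genes at a median of 0.80 with 15 of 21 called higher.

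Genes induced by low oxygen were higher in Mreg. Of 21 genes, 15 rose and 0 fell, with a median of 0.80. Egln3, an oxygen sensor that marks HIF for destruction and is itself induced by HIF, read 1.03, 0.56 and 0.73 in Mreg and -5.47, -6.52 and -6.19 in MΦ_IFN-γ, a difference of 6.83 ± 0.49 or 114-fold (adjusted p = 1.29e-10). Only 1 of 3 MΦ_IFN-γ arrays was well above background, so the fold rests in part on dim signals. Under the alternative that moved Egln3 most, the difference was 3.93. Ndrg1 was 3.51-fold and the MYC antagonist Mxi1 3.49-fold higher in Mreg, and the groups did not overlap in any of these 3 genes. Egln3 holds a hypoxia response element core, ACGTG, 229 bases before its start, capitalised here in chr12:54203875-54204124 (minus strand, GRCm38.p6).
Egln3: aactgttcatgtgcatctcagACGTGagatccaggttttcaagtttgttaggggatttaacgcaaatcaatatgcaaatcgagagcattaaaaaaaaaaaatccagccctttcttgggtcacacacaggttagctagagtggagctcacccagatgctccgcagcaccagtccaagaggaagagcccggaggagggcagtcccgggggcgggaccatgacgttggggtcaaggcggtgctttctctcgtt
Searched on both strands (CACGT on the other), these 5 letters overlap the E-box CACGTG and are common: 3184 of 11544 tested genes with a promoter entry held them (27.6%), against 14 of 17 hypoxia-induced genes (82.4%) and 13 of 20 glycolysis genes (65%). Among glucocorticoid-induced genes 10 of 18 held them (55.6%), among NRF2-controlled genes 5 of 20 (25%) and among type I interferon-stimulated genes 2 of 21 (9.52%). The share was 205 of 701 (29.2%) among genes at least 2-fold higher in Mreg and 103 of 498 (20.7%) among those at least 2-fold lower.

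Of 20 glycolysis genes, 8 rose and 1 fell, with a median of 0.34. Eno2 read -2.14, -1.25 and -1.39 in Mreg and -4.00, -4.09 and -3.29 in MΦ_IFN-γ, 4.60-fold higher in Mreg. Aldoc was higher by 1.32 on the log2 scale, and the lactate exporter Slc16a3 2.18-fold higher. The number of rises was 4 without Mreg 1 or under normexp and 3 without MΦ_IFN-γ 3. Aldoc was not called without either of these arrays, and a second Aldoc probe was not called with all 6.

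Genes of the glutathione and antioxidant program that NRF2 controls rose in 17 of 24 cases, with 1 fall (G6pdx) and a median of 0.91. Gsta3, a glutathione transferase, read 0.78, 1.69 and 1.26 in Mreg and -4.97, -4.28 and -3.95 in MΦ_IFN-γ, a difference of 5.64 ± 0.46 (adjusted p = 1.11e-09). Gstm2 was 12.3-fold and Mgst2 7.48-fold higher in Mreg, and Gsta1 at least 3.48-fold, the last a call lost under normexp. Every Mreg array lay above every MΦ_IFN-γ array in these 4 genes. Gclm, which sets the rate of glutathione synthesis together with GCLC and is outside the rule for named genes, rose by 1.86.

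Of 23 glucocorticoid-induced genes, 12 rose and 4 fell, with a median of 1.25, or 0.68 with genes below background at their bounds. Angptl4, an inhibitor of lipoprotein lipase, read 5.12, 5.56 and 5.21 in Mreg and 1.18, 1.52 and 1.42 in MΦ_IFN-γ (3.92 ± 0.40, adjusted p = 3.95e-08). Klf9, a transcription factor, read 1.53, 2.48 and 1.60 in Mreg and -1.66, -1.87 and -2.07 in MΦ_IFN-γ (3.74 ± 0.32, adjusted p = 1.89e-09). Glul, glutamine synthetase, was 13.3-fold higher in Mreg. Fkbp5 and Tsc22d3 (GILZ), 2 standard readouts of the glucocorticoid receptor outside the rule for named genes, rose by 2.36 and 1.83. Il1r2, the interleukin-1 decoy receptor, which glucocorticoids also induce, was at least 1.58-fold lower in Mreg, a call lost under normexp and with the mean of all its probes, and its second probe was not called. The number of falls in the list was 2 without Mreg 2 or without any of the MΦ_IFN-γ arrays, and 1 under normexp.

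Among lipid genes that LXR and PPAR control, 10 of 24 rose and 2 fell, with a median of 0.29. Fabp4, a fatty acid carrier, read 4.22, 5.72 and 5.27 in Mreg and 1.16, 1.40 and 2.47 in MΦ_IFN-γ (3.39 ± 0.45, adjusted p = 1.86e-06), and Fabp5 was 3.47-fold higher in Mreg. Abca1, which exports cholesterol, read -0.81, -0.32 and -0.00 in Mreg and 1.68, 1.95 and 1.63 in MΦ_IFN-γ, 4.39-fold lower in Mreg. Of 25 sterol synthesis genes, 6 rose and 3 fell, with a median of -0.19; without Mreg 2 or MΦ_IFN-γ 2, 1 fell.

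Among 33 genes of lysosomes, phagocytosis and scavenging, 8 rose and 4 fell, with a median of 0.23. Without Mreg 2, 5 rose and 1 fell, with a median of 0.04, and 2 fell without MΦ_IFN-γ 1, without MΦ_IFN-γ 2 or under normexp. Acp5, tartrate-resistant acid phosphatase, read 3.28, 4.77 and 3.47 in Mreg and -0.37, -0.42 and -0.43 in MΦ_IFN-γ (4.24 ± 0.32, adjusted p = 3.51e-10). Gas6, a bridge between dying cells and phagocytes, read 0.98, 1.30 and 1.24 in Mreg and 3.43, 3.46 and 3.57 in MΦ_IFN-γ, 4.97-fold lower in Mreg. Ctsk, cathepsin K, was 4.48-fold higher in Mreg, a call lost without Mreg 2, without MΦ_IFN-γ 1 and when the 6 arrays were fitted alone. Acp5 and Ctsk are osteoclast genes as well. Of 10 osteoclast markers, 4 rose and 0 fell, the further 2 being Dcstamp (4.97) and Atp6v0d2 (2.46), and their summed level was 92.4 to 132 in Mreg against 39.7 to 56.5 in MΦ_IFN-γ.

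Csf1r, the receptor for M-CSF, read 6.25, 5.81 and 6.01 in Mreg and 6.69, 6.72 and 6.52 in MΦ_IFN-γ, 1.54-fold lower in Mreg (adjusted p = 0.0138), and the call was lost without Mreg 2 or MΦ_IFN-γ 2. Of 23 growth factor and cytokine receptor genes, 6 rose and 5 fell, with a median of -0.06; without Mreg 2, 3 fell. Il1r1, the interleukin-1 receptor, was at least 1.43-fold higher in Mreg, a call lost under normexp and when the 6 arrays were fitted alone. Kit, the stem cell factor receptor, fell without being well above background on any Mreg array, so that no fold is given, and this call too was lost under normexp. Met, the receptor for hepatocyte growth factor, was 3.09-fold higher in Mreg, as was Hbegf, an EGF family ligand, at 4.82-fold. Of 23 early growth response, AP-1 and M-CSF feedback genes, 7 rose and 5 fell, with a median of 0.25. Without Mreg 2 or without MΦ_IFN-γ 3, 4 rose and 3 fell, and 3 fell without Mreg 3 or MΦ_IFN-γ 2. Ccnd2, cyclin D2, read 2.04, -0.53 and 0.85 in Mreg and 4.36, 4.41 and 3.93 in MΦ_IFN-γ (-3.45 ± 0.53, adjusted p = 1.68e-05). Egr3 was at least 7.00-fold lower in Mreg, whereas Dusp4, a phosphatase that switches off ERK, was 25.0-fold and the AP-1 protein Fosl1 12.9-fold higher. Egr2, a transcription factor of the same family, was 3.07-fold higher, a call lost without Mreg 2, MΦ_IFN-γ 2 or MΦ_IFN-γ 3 and when the 6 arrays were fitted alone.

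Of 32 cell cycle genes, 6 fell and 1 (Pcna) rose, with a median of -0.40. Ccnb2, a mitotic cyclin, read 1.25, 0.40 and 0.60 in Mreg and 1.99, 1.95 and 2.01 in MΦ_IFN-γ (-1.23 ± 0.37, adjusted p = 0.0127). Kif20a, Plk1 and Ccna2 were 2.12-fold, 2.10-fold and 2.04-fold lower, and all 4 calls were lost without Mreg 2. The Plk1 call was also lost without Mreg 3 or MΦ_IFN-γ 1, and the Ccna2 call without any array but Mreg 1. Mreg 1 was the highest Mreg array in 30 of the 32 genes and Mreg 2 the lowest in 25, and the number of falls was 1 without Mreg 2 and 3 without Mreg 3 or MΦ_IFN-γ 1.

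The same 2 media were also compared in the series without IFN-γ (Mreg_no IFN-γ against MΦ_M0) and with IFN-γ plus 100 µg/ml LPS (Mreg_+LPS against MΦ_M1), each on 3 arrays that the main comparison does not use. Without IFN-γ, 5440 genes were called (30.9%), with 17.2% higher and 13.7% lower. With LPS, 9580 were called (54.5%), with 29.4% higher and 25.1% lower. Across 17591 genes, which are not independent, the differences correlated at 0.75 with those without IFN-γ and at 0.517 with those under LPS; all Mreg cultures of 1 number shared a slide. Of the 1018 genes at least 2-fold higher in Mreg, 976 (95.9%) had the same sign without IFN-γ and 763 (75%) were called in the same direction. Of the 751 at least 2-fold lower, 728 (96.9%) had the same sign and 565 (75.2%) were called so. Under LPS, the same sign was seen in 864 (84.9%) and 629 (83.8%).

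**Figure D4:**
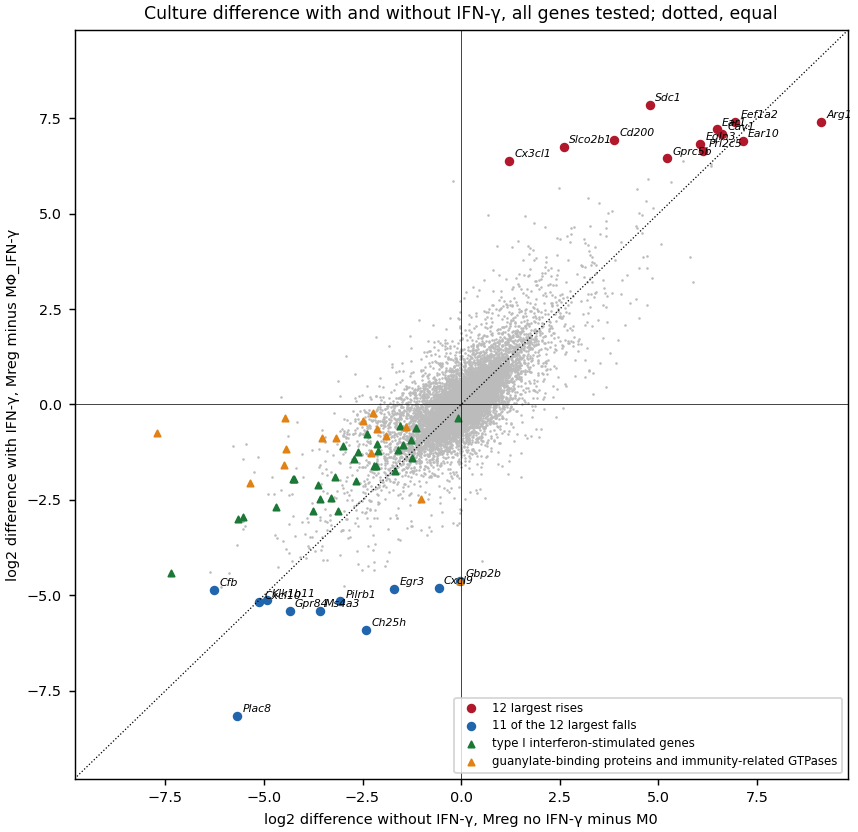
Difference between the Mreg and M-CSF cultures with IFN-γ (y axis, Mreg minus MΦ_IFN-γ, log2) and without it (x axis, Mreg_no IFN-γ minus MΦ_M0, log2), 1 point per gene; colours mark the 12 largest rises, 11 of the 12 largest falls and 2 interferon gene lists. The correlation over 17591 genes is 0.75; Arg1 (7.41 and 9.13) and Cav1 (7.10 and 6.61) lie near the diagonal, and Cx3cl1 (6.38 and 1.22) lies above it.

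The largest rises included genes that differed between the media in all 3 settings and genes that did not. Arg1 differed by 9.13 without IFN-γ and by 7.37 under LPS, beside 7.41 with IFN-γ alone, and Cav1 by 6.61 and 6.06, beside 7.10. The test of the difference between 2 such differences called 290 genes (1.65%) for IFN-γ against none, and 6155 (35%) for IFN-γ against IFN-γ with LPS. Cx3cl1 differed by 1.22 without IFN-γ, where it was not called (adjusted p = 0.0654), and the 2 differences themselves differed by 5.15 (adjusted p = 1.53e-04). In the list of 15 guanylate-binding proteins and GTPases, 13 fell without IFN-γ. In those cultures Gbp2b was not well above background in either medium, and Gbp6 and Gbp8 were not in Mreg_no IFN-γ, so the sizes of these differences are not compared. Among type I interferon-stimulated genes, 28 of 29 fell without IFN-γ (median -2.66) and 7 of 29 under LPS (median -0.36), the latter near the 25.1% of all genes that fell there. With IFN-γ alone the median was -1.62, so the fall was larger where no IFN-γ was given. The differences between these medians were not tested.

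Counts of other lists also differed under LPS. Cell cycle genes fell in 29 of 32 without IFN-γ (median -1.94), and under LPS 25 of 32 rose and 1 fell (median 1.37), beside 6 falls and 1 rise with IFN-γ alone. NRF2-controlled genes, with 17 rises and 1 fall of 24 here, showed 19 rises and 0 falls without IFN-γ (median 1.04) and 7 rises and 8 falls under LPS (median -0.35). Their counts under LPS lie near the shares of all genes, 29.4% higher and 25.1% lower. The differences between these counts were not tested.

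**Figure D5:**
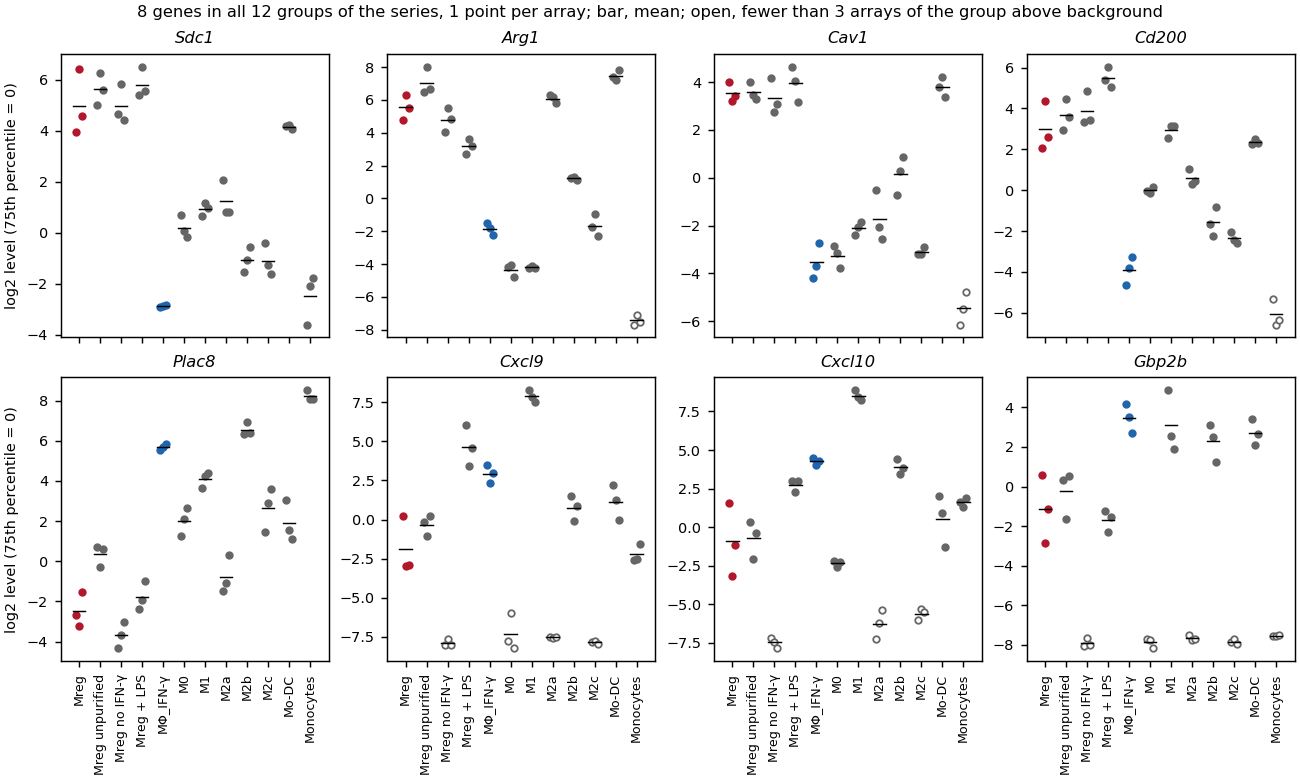
Level of 8 genes (log2 relative to the array's 75th percentile) in all 12 groups, 1 point per array with a bar at the mean, Mreg cultures left of MΦ_IFN-γ and the other groups; points are open where fewer than 3 arrays of the group were well above background. Sdc1 averages 4.97 in Mreg, with the other Mreg cultures between 4.96 and 5.81, and Plac8 averages -2.47 in Mreg and 8.23 in monocytes.

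Of the 12 largest rises and 12 largest falls, 6 besides Cd200 belong to none of the gene lists above. Eef1a2, a translation elongation factor best known from neurons and muscle, read -0.82, 1.36 and -1.53 in Mreg and was not well above background in MΦ_IFN-γ, at least 41.4-fold higher in Mreg (adjusted p = 3.64e-07). Slco2b1, an organic anion transporter, was at least 40.1-fold and Prl2c5, a prolactin family member, at least 26.9-fold higher in Mreg. Gprc5b, an orphan receptor, was 87.4-fold higher, with 1 of 3 MΦ_IFN-γ arrays well above background, and its log2 difference was 3.53 under the alternative that moved it most. Pilrb1, an activating receptor of myeloid cells, read -2.37, -4.87 and -2.79 in Mreg and 2.01, 1.60 and 1.82 in MΦ_IFN-γ, 35.6-fold lower in Mreg (adjusted p = 1.2e-07). Klk1b11, a kallikrein, was at least 8.03-fold lower, a call lost under normexp. Ear2, which the rule for named genes also lists, had no probe that could be used.

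In the whole series these genes were not all high in Mreg cultures alone. Sdc1 averaged 4.97 ± 1.28 in Mreg and -2.88 ± 0.05 in MΦ_IFN-γ (SD, n = 3), and monocyte-derived dendritic cells reached 4.16 ± 0.08. The dendritic cells had GM-CSF and IL-4 in place of M-CSF, and they and MΦ_M2b also received IFN-γ. Arg1 averaged 5.54 ± 0.78 in Mreg and -1.86 ± 0.37 in MΦ_IFN-γ, and was higher than in Mreg in the dendritic cells, at 7.48 ± 0.29, and in IL-4-treated macrophages (MΦ_M2a), at 6.08 ± 0.27. Cav1 averaged 3.55 ± 0.41 in Mreg and -3.55 ± 0.74 in MΦ_IFN-γ, 3.80 ± 0.42 in the dendritic cells and between 3.34 and 3.96 in the other Mreg cultures, and in the remaining groups it was highest in MΦ_M2b, at 0.14 ± 0.79. Plac8 averaged -2.47 ± 0.86 in Mreg, 5.68 ± 0.15 in MΦ_IFN-γ and 8.23 ± 0.24 in the sorted monocytes. As whole profiles, the Mreg means correlated at 0.992 with Mreg_unpurified, at 0.979 with Mreg_no IFN-γ, at 0.981 with MΦ_M2b and at 0.978 with MΦ_IFN-γ.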

How the data were processed

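RNA of 36 mouse cell preparations was labelled with Cy3 and hybridised to 1-colour Agilent arrays. The authors' scanner software, Feature Extraction 10.5.1.1, read, background-subtracted and flagged the spot intensities, per the file headers, and probe coordinates are those of build mm8. The deposited series table holds log2 intensities that the authors had normalized between arrays, and served as an alternative.

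The members and gene lists were chosen with earlier results of these data known. Non-uniform and outlying spots were left out and spots of 1 probe averaged; 26460 of 41174 probes passed the filter (3 or more of the 36 arrays flagged as well above background), and each of 17593 genes was represented by its brightest one. Names came from the probe accession (24375 probes), symbol (6301) or older symbol (2426) in a RefSeq table of GRCm38.p6, and otherwise from the file (8072). Values are log2 of processed intensity minus the 75th percentile of the array, which ran from 320.0 to 648. Spots carry no counts, so the number of arrays limits the precision. limma 3.58.1 in R 4.3.3 (lmFit, eBayes) fitted 12 group means over 36 arrays; contrasts were adjusted by Benjamini-Hochberg and called under 0.05. Mchr1 and Vps13a had no usable spot in MΦ_IFN-γ, which left 17591 genes. A lower bound on a fold takes, on each dim array, the higher of the probe's own signal and the lowest signal well above background. Tested on simulated data with 200 changed genes of 17593, the fit recovered 57% of changes of 1 and 91% of changes of 2 on the log2 scale. Named genes are the 12 largest rises and 12 largest falls among called genes whose groups did not overlap (well above background on all 3 brighter arrays; clone and predicted names skipped; ranks use fitted differences, also where a group was dim), up to 4 members of each list with the largest called change of at least 2-fold, and a set list (Arg1, Cav1, Cd274, Csf1r, Cxcl9, Cxcl10, Ear2, Ido1, Il10, Il12b, Mrc1, Nos2, Plac8, Retnla, Sdc1, Tnf); a few genes that this rule or the lists take in are not reported here. Alternatives were normexp (offset 50), quantile normalization, no filter, a filter of 18 arrays, averaging a gene's probes, the authors' table, series number, slide or scan day as a block, the arrays of a single scan day, only the compared groups, and each array left out. Python 3.11.15 and matplotlib 3.10.9 drew the figures.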

Additional observations from a re-analysis of the deposited data

Results flagged for a closer look

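The difference between the Mreg and M-CSF cultures itself differed between settings for the following named genes, by the interaction term of the limma fit with Benjamini-Hochberg adjustment over all genes. With IFN-γ minus without, it was larger by 3.07 for Sdc1 (7.85 and 4.78, adjusted p = 0.0315), by 3.06 for Cd200 (6.94 and 3.88, 0.0236), by 5.15 for Cx3cl1 (6.38 and 1.22, 1.53e-04), by 2.44 for Fabp4 (3.39 and 0.95, 0.0442) and by 2.56 for Hbegf (2.27 and -0.29, 0.0310). Rtp4 (-2.94 and -5.54) differed by 2.60 (0.0236) and Ccna2 (-1.03 and -3.15) by 2.12 (0.0428), both with the smaller fall when IFN-γ was present. With IFN-γ minus with IFN-γ and LPS, Sdc1 differed by 2.97 (7.85 and 4.88, 0.00258) and Cd200 by 4.38 (6.94 and 2.55, 2.08e-05), while the fall was deeper with IFN-γ alone by -2.30 for Plac8 (-8.15 and -5.85, 0.0234) and by -2.57 for Cfb (-4.85 and -2.28, 0.0229).

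Of the named genes, 14 passed this test against the cultures without IFN-γ and 9 against those with LPS. The values above are those of the 7 and 4 genes that were measured above background in all 4 groups.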

How the results depend on the processing

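Of 99 named genes that were called, 76 were called under each of the 17 alternatives that had a value for them. The other 23 lost the call under at least 1 of them, and 0 changed direction. When a single array was left out, 13 lost it, 11 of them without Mreg 2. Normexp gave lower counts: 3176 genes called, 1519 higher, 503 higher and 390 lower by at least 2-fold, 39 for the interaction with IFN-γ and 3872 for that with LPS; the cause was not tested. The filter of 18 arrays has no value for 7 named genes, and without a filter the median of all genes was 0.15. List medians also moved where members were dim. With dim genes at their bounds, or at 0 where no bound could be given, the median was 0 for IL-4-associated genes and 0.10 for lipid genes. It was -0.68 both for chemokine and formyl peptide receptors and for MHC class II genes. The median of the caveolae coat genes was 0.57 under normexp and 0.88 without Mreg 1. Folds written as at least are bounds under the main processing only. Under the alternative that moved each gene most, the log2 difference was 2.98 for Ear1, 2.46 for Ear10 and 3.03 for Eef1a2. It was 1.82 for Ccl22, 1.04 for Cd276 and -1.80 for Gpr84. For Slco2b1 it was 2.89, for Prl2c5 2.53, for Ear6 1.92 and for Ear3 1.79. Each of these is smaller than the bound stated above. Leaving out 1 array at a time, which leaves fewer arrays to test, gave 3664 to 4594 genes called, 1831 to 2293 higher, 1833 to 2301 lower, 875 to 1076 higher and 621 to 832 lower by at least 2-fold, and 5582 to 6119 for the interaction with LPS.

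The interaction with IFN-γ was the least stable count. It was 290 genes with all arrays, 180 without a filter, 71 on the scan day with 2 arrays a group, 568 with the compared groups alone, and 124 to 228 with 1 array left out, more than 1.5 times lower for 10 of 12 arrays (all but Mreg 2, with 228, and Mreg_no IFN-γ 3, with 206). Whether series number pairs the samples is not settled by these arrays, and the main fit did not pair them. Deviations of same-numbered Mreg and MΦ_IFN-γ arrays correlated at 0.29, 0.18 and 0.05, and those of differently numbered arrays at -0.29 to 0.13. Mreg 1 and Mreg 2 correlated best with their own number, and Mreg 3 with MΦ_IFN-γ 1, at 0.07. With the replicate block 5780 genes were called, and 472 for the interaction with IFN-γ. Scan day as a fixed block gave 5463 called genes; the day with 1 array a group allows no test.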
